A study of Homo sapiens with 6 samples.

Results

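Chemokines are small secreted proteins that draw leukocytes towards the cells that make them, and this account follows 10 chemokine genes, CCL20, CXCL1, CXCL2, CXCL3, CXCL5, CXCL8, CXCL10, CXCL16, CX3CL1 and CCL5, in H1975 cells before and after exposure to osimertinib (Osi). The 10 were taken by symbol from a table of 27216 rows and all 10 were found. The set was put together because CCL20 is among the largest falls in this same comparison, so the differences of the 10 genes are a description and are not offered as evidence for anything else.

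H1975 is an established human non-small cell lung cancer line with mutant EGFR, and Osi is an EGFR tyrosine kinase inhibitor. The 3 parental samples are labelled as 1000 nM Osi for 0 h and the 3 adapted samples as 1000 nM Osi for 72 h, all wild type by label and from 1 line. After exposure, dying cells were rinsed off and the cells still attached were lysed, so the adapted samples hold survivors. The table heads the parental columns with DMSO, and whether these cells were kept in DMSO or for how long is not given, so time in culture and drug cannot be told apart. The labels also describe RNase R, which digests linear RNA, whereas the methods of the study name total RNA alone. The study describes its data in general as coming from independent experiments, but no source says whether these replicates were separate cultures, so p-values measure the spread between these samples, which may be technical.

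The values are log2(FPKM + 1), where FPKM is a read count scaled to transcript length and library size. Depth is unknown, because the table holds no counts. All 7 epithelial markers (EPCAM, KRT7, KRT8, KRT18, KRT19, CDH1 and EGFR) were at 1 or more in some sample, with a summed level of 4251 to 4287 FPKM in parental and 4022 to 4330 FPKM in adapted samples. All 10 leukocyte markers stayed under 1 in every sample, CD3E and MS4A1 were listed at 0, and the summed level was 2.30 to 2.37 FPKM in parental and 0.607 to 1.24 FPKM in adapted samples. The 6 fibroblast markers summed to 3.04 to 3.17 FPKM in parental and 8.60 to 9.33 FPKM in adapted samples, and the 4 endothelial markers to 1.13 to 1.88 and 1.49 to 3.50 FPKM. COL1A1 and COL3A1 of the former and PECAM1 and CDH5 of the latter reached 1 in some sample, and the part of these marker levels in the chemokine results was not tested. Adapted replicate 1 stood somewhat apart, with r = 0.991 across all rows to either other adapted sample against 0.996 between those, across rows that are not independent.

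The 10 genes fall into groups by what their proteins do. CXCL1, CXCL2, CXCL3, CXCL5 and CXCL8 carry the glutamate-leucine-arginine (ELR) motif before their paired cysteines and call in neutrophils through CXCR1 and CXCR2. CCL20 binds CCR6 and draws dendritic cells and lymphocytes, CXCL10 attracts T cells through CXCR3, and CCL5 acts on T cells and monocytes. CXCL16 and CX3CL1 differ from the others in being made as membrane-anchored proteins, which bind CXCR6 and CX3CR1 and are released by ADAM10 and ADAM17. In epithelial cells the ELR+ genes and CCL20 are classic targets of NF-kB and AP-1 downstream of IL-1, IL-17 and TNF, and their messages are short-lived because AU-rich stretches in the 3' UTR are bound by decay factors.

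The upstream sequences of these genes are shown because NF-kB and AP-1 sites close to the start are what the family is known for. RefSeq promoters (GRCh38.p14) were matched for 7 of the 10 genes. CXCL16, CX3CL1 and CCL5 were not matched. Each line gives the 150 bases before the RefSeq start, 5' to 3' on the strand of the gene. Capitals mark matches to GGNNNTTCC (NF-kB-like), TGANTCA (AP-1-like) or the core box TATAAA. The core of the interferon-stimulated response element (interferon-like) was searched too, and all 4 motifs on both strands.
CCL20 (chr2:227813692-227813841, plus strand): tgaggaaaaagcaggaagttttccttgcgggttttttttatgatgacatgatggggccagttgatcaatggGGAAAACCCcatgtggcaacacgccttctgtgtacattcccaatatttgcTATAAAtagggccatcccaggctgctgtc
CXCL8 (chr4:73740419-73740568, plus strand): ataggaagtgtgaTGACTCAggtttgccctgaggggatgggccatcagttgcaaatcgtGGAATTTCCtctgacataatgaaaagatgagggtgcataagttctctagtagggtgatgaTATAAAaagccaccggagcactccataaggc
CXCL1 (chr4:73869243-73869392, plus strand): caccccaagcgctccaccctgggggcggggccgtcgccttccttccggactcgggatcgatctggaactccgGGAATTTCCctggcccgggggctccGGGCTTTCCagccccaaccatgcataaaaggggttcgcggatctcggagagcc
CXCL2 (chr4:74099196-74099345, minus strand): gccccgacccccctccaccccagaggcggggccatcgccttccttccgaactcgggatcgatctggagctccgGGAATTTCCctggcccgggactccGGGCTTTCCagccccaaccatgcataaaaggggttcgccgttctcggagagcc
CXCL3 (chr4:74038690-74038839, minus strand): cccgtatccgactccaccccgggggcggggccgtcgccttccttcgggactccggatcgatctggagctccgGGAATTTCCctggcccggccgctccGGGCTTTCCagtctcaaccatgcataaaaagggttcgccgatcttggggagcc
CXCL5 (chr4:73998678-73998827, minus strand): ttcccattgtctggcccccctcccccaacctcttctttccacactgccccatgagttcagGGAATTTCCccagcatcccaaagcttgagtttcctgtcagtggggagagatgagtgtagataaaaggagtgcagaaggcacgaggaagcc
CXCL10 (chr4:76023498-76023647, minus strand): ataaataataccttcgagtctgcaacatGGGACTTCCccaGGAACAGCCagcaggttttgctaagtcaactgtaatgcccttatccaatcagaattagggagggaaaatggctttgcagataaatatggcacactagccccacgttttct

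Within the full window of 250 bases before to 50 after the start, all 7 promoters held GGNNNTTCC, which 20.1% of 35116 RefSeq promoters of the same length also hold. The letters were written with known NF-kB sites of these genes in mind, so the count of 7 is not independent of them. The form GGAATTTCC, singled out after the matches were seen, was held on either strand by 6 of the 7 and by 0.461% of all promoters. It lay on the strand of the gene in the 5 ELR+ genes, from -91 to -83 in CXCL8, -90 to -82 in CXCL5, -78 to -70 in CXCL1 and CXCL3 and -77 to -69 in CXCL2, counting the base before the start as -1. CXCL10 held it on the opposite strand, from -176 to -168. CXCL1, CXCL2 and CXCL3 shared a further match, GGGCTTTCC, from -53 to -45, and CCL20 had its single match on the opposite strand, from -79 to -71. The AP-1-like motif was found in CXCL8 alone of the 7 (7.71% of all promoters), the interferon-like motif in CXCL10 alone (3.57%, from -221 to -212, upstream of the stretch printed), and TATAAA in CCL20 and CXCL8 (11.5%). CXCL10, whose level was higher in adapted cells, held 3 NF-kB-like matches, so genes that were lower and a gene that was higher both carried these letters. A match is a description of letters and not a site at which binding was measured.

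**Figure D1:**
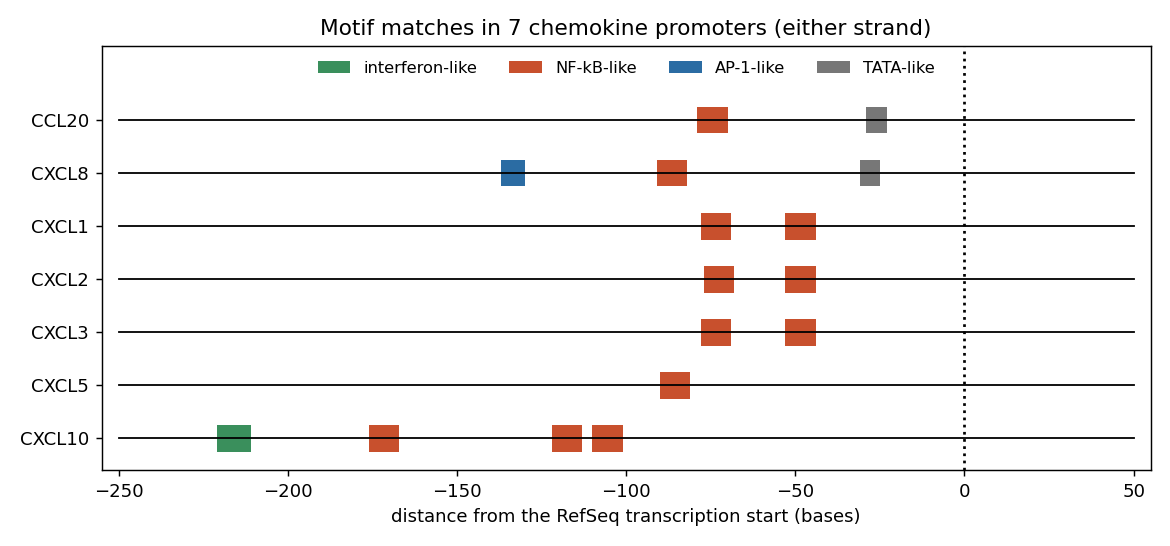
Motif matches in the 7 matched promoters, by distance from the RefSeq start in bases (x axis, 0 is the start), with NF-kB-like, AP-1-like, interferon-like and TATA-like matches on either strand in different colours. Every promoter has an NF-kB-like match upstream of the start, and CXCL1, CXCL2 and CXCL3 share a pair at nearly the same positions.

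Adapted samples were set against parental ones with limma on the 12656 rows whose mean over the 6 samples was at least 1, with Benjamini-Hochberg adjustment over all of them and a threshold of 0.05. Of the 10 chemokines, 8 passed this filter and all 8 were past the threshold, beside 56.9% of all rows tested. Of these, 6 were lower in adapted cells (26.2% of all rows) and 2 were higher (30.7% of all rows). The median log2 fold change of the 8 was -1.45 against 0.028 over all rows tested. CXCL10 and CCL5 were too low to be tested. In all 10 genes the 3 adapted values lay entirely to 1 side of the 3 parental values, beside 66.3% of the rows tested and 49.3% of the 23902 rows above 0 in some sample. Since CCL20 was picked from this contrast and these shares are high, nothing is read from the counts. In bulk RNA, fewer cells that express a gene and less RNA per cell cannot be told apart. For 1 gene on its own, exact permutation of 3 and 3 samples gives no p under 0.1.

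**Figure D2:**
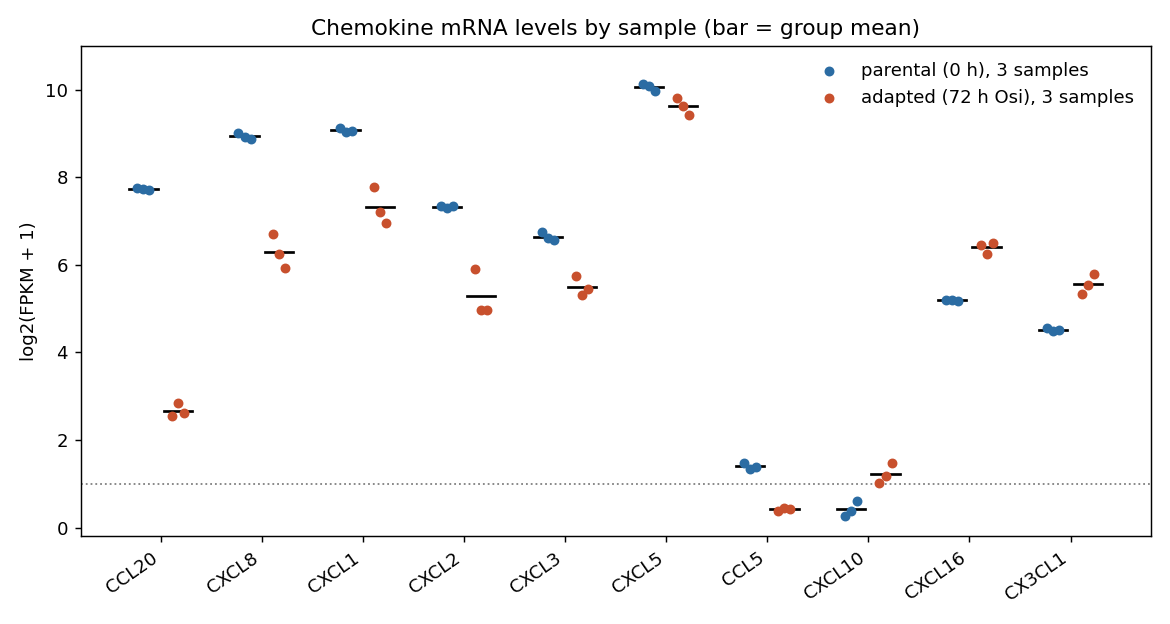
Level of each of the 10 chemokines in each sample, as log2(FPKM + 1) on the y axis, with parental samples in blue, adapted samples in orange, a bar at each group mean and a dotted line at 1, the minimum mean for testing. CCL20 shows the widest separation between the groups, CXCL5 the narrowest among the tested genes, and CXCL10, CXCL16 and CX3CL1 sit higher in adapted samples.

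CCL20 had log2(FPKM + 1) values of 7.76, 7.74 and 7.72 in parental and 2.55, 2.84 and 2.61 in adapted samples. Both groups were tight, and the nearest parental and adapted samples were 4.88 apart on this scale. On the linear scale its level went from 213 ± 2.81 to 5.37 ± 0.702 FPKM (SD, n = 3 each), a level 39.6-fold lower in adapted cells. The difference of -5.07 (standard error 0.08) gave CCL20 rank 5 among the falls of all 12656 rows. Just above it among rows with a gene symbol stood S100A7 (-5.49) and OLFM4 (-5.11), and just below it SERPINB3 and IL1A (both -4.82). The rank and this order hold for the log2(FPKM + 1) scale, which understates falls to low levels. With 0.1 in place of the 1 added before the log, the difference was -5.29 for CCL20 and -5.70 for IL1A, so these 2 changed order. CCL20 lies on chromosome 2 from 227805739 to 227817564 on the plus strand (GENCODE v29, GRCh38), away from the other members.

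CXCL8, also called interleukin 8, had values of 9.01, 8.92 and 8.87 in parental and 6.71, 6.26 and 5.94 in adapted samples. The groups were 2.17 apart at their closest, and the adapted samples were more spread out than the parental ones. Its level dropped from 489 ± 23.8 to 79.7 ± 21.9 FPKM (SD, n = 3 each), 6.13-fold lower, and the log2 difference was -2.64 (standard error 0.18), rank 54 among the falls.

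CXCL1, CXCL2 and CXCL3 are close paralogs that act on CXCR2. CXCL1 had values of 9.14, 9.04 and 9.06 in parental and 7.77, 7.20 and 6.95 in adapted samples, a log2 difference of -1.77 (standard error 0.19). CXCL2 had values of 7.34, 7.31 and 7.34 in parental and 5.91, 4.97 and 4.96 in adapted samples, a difference of -2.05 (standard error 0.24). Adapted replicate 1 was the highest adapted sample in both genes. In CXCL2 it stood well above the other two, which were nearly equal. CXCL3 had values of 6.74, 6.62 and 6.56 in parental and 5.75, 5.31 and 5.44 in adapted samples, a difference of -1.14 (standard error 0.12). In FPKM, CXCL1 was 3.32-fold and CXCL3 2.21-fold lower, and CXCL2 went from 159.9 ± 1.97 to 40.0 ± 16.8 (SD, n = 3 each). Their transcripts share sequence, so their counts may be split between them: 5.73% of the 50-base stretches of the longest CXCL1 coding transcript, 9.24% of those of CXCL2 and 5.26% of those of CXCL3 occur exactly in a transcript of another gene. In each of the 3 the gene that shares most is another of the 3.

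CXCL5 was the most abundant of the 10 chemokines in every sample and differed least. Its values were 10.12, 10.07 and 9.97 in parental and 9.82, 9.63 and 9.42 in adapted samples, and the groups were 0.16 apart at their closest. The level was 1065 ± 56.3 FPKM in parental and 791 ± 109 FPKM in adapted samples (SD, n = 3 each), 1.35-fold lower, with a log2 difference of -0.44 (standard error 0.11). This call was lost without parental replicate 1 (difference -0.40, limma, adjusted p = 0.0568) or parental replicate 2 (-0.43, adjusted p = 0.0531).

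Parental and adapted samples also differed in the make-up of the summed level of the 5 ELR+ genes among the 10. Other ELR+ chemokines, such as PPBP, are not in these sums. The 5 genes summed to 2459, 2340 and 2259 FPKM in parental and 1334, 1080 and 938 FPKM in adapted samples, 2.11-fold lower in adapted cells. CXCL5 made up 45.3 ± 0.781% of this sum in parental and 71.1 ± 3.12% in adapted samples (SD, n = 3 each). CXCL8 took 20.7 to 20.9% in parental and 6.43 to 7.75% in adapted samples, and CXCL1 22.4 to 23.6% and 13.1 to 16.3%. The share of CXCL3 overlapped between the groups, at 4.13 to 4.31% and 3.58 to 4.53%. All 10 chemokines together made up 0.658 to 0.713% of the summed FPKM of a parental sample and 0.288 to 0.378% of an adapted sample.

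**Figure D3:**
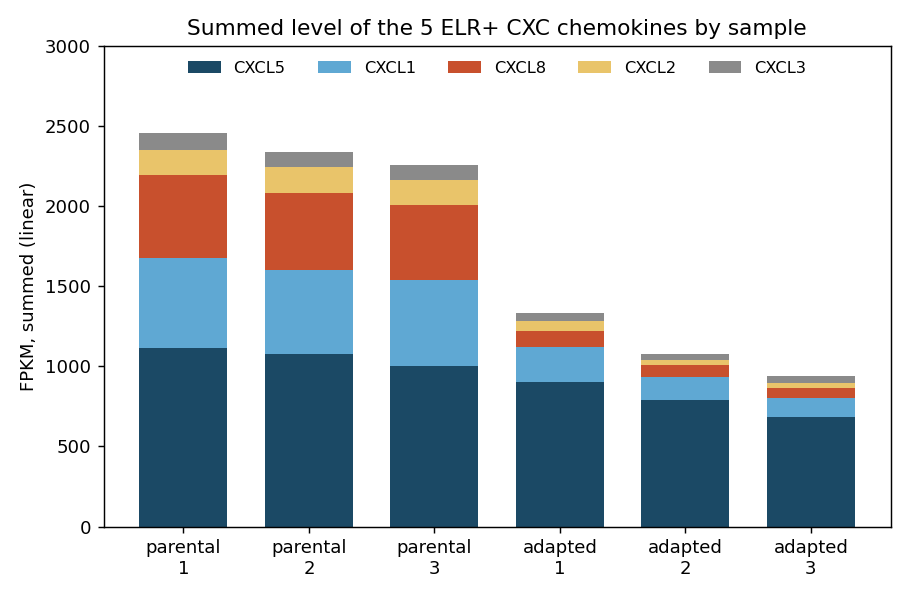
Summed level of CXCL5, CXCL1, CXCL8, CXCL2 and CXCL3 in each sample, in linear FPKM from 0, with 1 bar per sample. The CXCL5 segment changes least in proportion to its size, while the CXCL8 segment shrinks from 20.7 to 20.9% of the bar to 6.43 to 7.75%.

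CXCL16 and CX3CL1, the membrane-anchored members, were the 2 tested chemokines that were higher in adapted cells. CXCL16 had values of 5.20, 5.21 and 5.17 in parental and 6.46, 6.26 and 6.49 in adapted samples. It went from 35.6 ± 0.440 to 83.9 ± 7.26 FPKM (SD, n = 3 each), 2.36-fold higher, with a log2 difference of 1.21 (standard error 0.07). CX3CL1 (fractalkine) had values of 4.56, 4.49 and 4.52 in parental and 5.34, 5.53 and 5.79 in adapted samples, and went from 22.0 ± 0.558 to 46.4 ± 7.54 FPKM, 2.12-fold higher, with a log2 difference of 1.04 (standard error 0.11). Neither gene overlapped between the groups. CXCL16 (chromosome 17, 4733526 to 4739922, minus strand) shares 85 bases with MED11 on the opposite strand, whose values were 4.31 to 4.35 in parental and 4.50 to 4.74 in adapted samples. The position of CX3CL1 is chromosome 16, 57372458 to 57385048, plus strand.

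CXCL10 and CCL5, both interferon-responsive genes, were near the floor of the table. CXCL10 had values of 0.27, 0.37 and 0.61 in parental and 1.01, 1.18 and 1.47 in adapted samples, or 0.340 ± 0.163 and 1.36 ± 0.387 FPKM (SD, n = 3 each). CCL5 had values of 1.48, 1.34 and 1.38 in parental and 0.37, 0.45 and 0.42 in adapted samples, or 1.64 ± 0.130 and 0.333 ± 0.0367 FPKM. The pair moved in opposite directions without overlap between the groups, at levels where the log2(FPKM + 1) scale understates change. The fit without a filter covered 23902 rows, of which 36.6% were past the threshold, and gave log2 differences of 0.81 (standard error 0.15) for CXCL10 and -0.98 (standard error 0.07) for CCL5. CXCL10 (chromosome 4, 76021117 to 76023497, minus strand) lies wholly inside ART3, a gene on the opposite strand with values of 0.00 to 0.07 in all samples. CCL5 (chromosome 17, 35871491 to 35880793, minus strand) is overlapped by the antisense gene AC015849.1, and whether the counting used strand is not given. In addition, 16% of the 50-base stretches of CCL5 occur in transcripts of other genes, so its low level is uncertain.

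**Figure D4:**
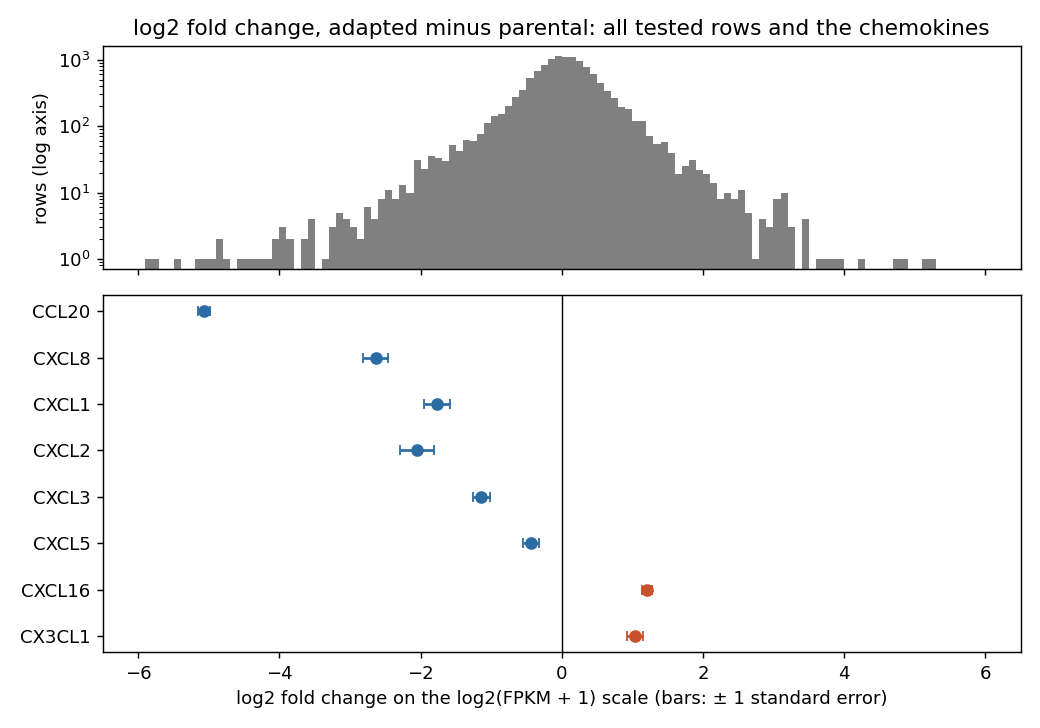
Upper panel, number of tested rows (log axis) by log2 fold change of adapted minus parental cells; lower panel, the log2 fold change of the 8 tested chemokines with ± 1 standard error. CCL20 lies at the far left edge of the distribution at -5.07, and CXCL5 to the left of its centre at -0.44 (rank 2081 among the falls). CXCL16 and CX3CL1 lie to the right at 1.21 and 1.04.

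The order of the chemokines by FPKM changed with exposure. In parental cells it ran CXCL5, CXCL1, CXCL8, CCL20, CXCL2, CXCL3, CXCL16, CX3CL1, CCL5 and CXCL10, and no neighbours overlapped. In adapted cells CXCL5 and CXCL1 remained the top pair, CXCL16 stood in position 3 with values that overlapped those of CXCL8, and CX3CL1, CXCL3 and CXCL2 followed, of which CXCL3 overlapped CX3CL1 and CXCL2 overlapped CXCL3. CCL20 went from position 4 to position 8. Adapted replicate 1 was the adapted sample nearest to the parental mean in 7 of the 10 genes (CXCL1, CXCL2, CXCL3, CXCL5, CXCL8, CXCL10 and CX3CL1), and it was nearest in 54.8% of all 7202 rows past the threshold. CCL20, CXCL16 and CCL5 were the exceptions, with adapted replicate 2 nearest.

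The 5 ELR+ genes lie together on chromosome 4 between 73740506 and 74099293, a span of 358.8 kb (GENCODE v29, GRCh38). The other protein-coding genes of this span are chemokines too. PPBP, a further ELR+ chemokine best known from platelets, lies between CXCL1 and CXCL5 and had values of 0.07, 0.21 and 0.00 in parental and 2.12, 2.72 and 2.57 in adapted samples. The difference of PPBP was 2.38 on the log2 scale and the groups did not overlap, but it passed the filter only through the adapted samples, where it is high, so its test carries no weight and is not given. CXCL6, between CXCL8 and CXCL1, had values of 1.42, 1.51 and 1.43 in parental and 0.72, 1.88 and 1.57 in adapted samples, and the groups overlapped (difference -0.06, adjusted p = 0.865). PF4 was listed at 0 in all samples, and PF4V1 was at 0.14 in parental replicate 1 and listed at 0 in the others.

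The AU-rich stretches of the members are shown because they mark the short-lived messages of the family. Each line gives the 30 bases of the 3' UTR (longest GENCODE v29 coding transcript) with the most ATTTA pentamers, with the pentamers in capitals. Only CXCL2, CXCL8, CXCL1 and CX3CL1 are printed, with 5, 4, 3 and 1 pentamers in this stretch. Of the members not printed, CXCL3 and CXCL5 held 2 each, CCL20, CXCL10 and CXCL16 held 1 each, and CCL5 held 0. So CCL20, which fell most, had no more in its densest stretch than CX3CL1, which was higher.
CXCL2 (bases 137 to 166 after the stop codon): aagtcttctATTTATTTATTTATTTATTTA
CXCL8 (bases 644 to 673 after the stop codon): taacctATTTAttATTTAtgtATTTATTTA
CXCL1 (bases 129 to 158 after the stop codon): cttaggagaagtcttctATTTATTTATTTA
CX3CL1 (bases 275 to 304 after the stop codon): gccatcccagccccaatgaacaattATTTA

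Counted over the whole 3' UTR, ATTTA occurred at 13.9 per kb in CXCL2, 10.4 in CXCL3, 7.19 in CXCL8, 7.08 in CXCL1, 6.24 in CCL20 and 5.51 in CXCL5. Across 16580 genes with a 3' UTR of at least 200 bases the median was 1.74 per kb, and 8.24% of genes had 5 or more. CXCL10, CXCL16 and CX3CL1 had 1.23, 1.02 and 0.995 per kb, and CCL5 had none. So the 6 tested genes that were lower were all above 5 per kb and the 2 that were higher were near 1, while CCL5 was lower with none. These are counts of letters in annotated transcripts, and message stability was not measured. The cut of 5 per kb cannot be taken as set without sight of these densities. CXCL1, CXCL2 and CXCL3 are close paralogs that share sequence, so they are not independent counts. Whether ATTTA density goes with the direction of change was not tested.

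By the distance between the 6 values, each row being centred on its parental mean, the row most like CCL20 was IL1A (distance 0.50 on the log2 scale), the alpha form of interleukin 1, followed by SERPINB3 (0.69), CRABP2 (1.01), CYP24A1 (1.11) and MUC5B (1.12). IL1A had values of 5.84, 5.74 and 5.72 in parental and 0.92, 0.94 and 0.98 in adapted samples. The rows most like CXCL8 were GLYATL1, P2RY6, CDK1, ETV4 and DDC, with distances of 0.28 to 0.30. This likeness is measured over 6 samples in 2 groups and mostly reflects the size of the difference between them. IL1A, SERPINB3, GLYATL1 and DDC had adapted means under 1 (0.95, 0.15, 0.28 and 0.54). They passed the filter only through the parental samples, where they are high, so their place here carries no weight.

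Among the genes that switch on ELR+ chemokines and CCL20, 30 of 31 passed the filter, and 17 fell, 6 rose and 7 were not past the threshold, beside 26.2% and 30.7% of all rows. Their median log2 fold change was -0.62 against 0.028 for all rows. The cytokines IL1A and IL1B, which are strong inducers of this group, fell by 4.82 and by 4.36 in log2 units (for IL1B, adjusted p of 5.52e-07, limma). IL1B had values of 5.71, 5.76 and 5.68 in parental and 1.52, 1.14 and 1.40 in adapted samples. FOS, a subunit of AP-1, fell by 2.37, from a mean of 2.96 to 0.59. The AP-1 subunits of the list went different ways. JUN was higher, with a difference of 0.32 (limma, adjusted p = 0.0469), and FOSL1 overlapped between the groups (-0.82, adjusted p = 0.0899). IL1A, FOS, IL36G, TNF and IL17C had adapted means under 1 and so passed the filter only through the parental samples, where they are high. Their tests and their part in the counts and in the median carry no weight, and neither was computed without them. Of the genes that rose, MYD88, the adaptor of IL-1 and Toll-like receptors, went up by 1.59 (limma, adjusted p = 1.86e-04), IL17RC, a chain of the IL-17 receptor, by 0.94 (adjusted p = 4.11e-04) and the ubiquitin ligase TRAF6 by 0.39 (adjusted p = 0.0244). TRAF6 lost its call in 7 of the 17 alternatives that tested it, with adjusted p up to 0.0821. RELA, the main activating subunit of NF-kB, had a difference of 0.06 (standard error 0.06, adjusted p = 0.452), and RELB one of 0.04 (adjusted p = 0.701). The other NF-kB subunits were lower, with differences of -0.86 for REL (limma, adjusted p = 7.97e-05), -0.42 for NFKB1 (adjusted p = 0.00225) and -0.35 for NFKB2 (adjusted p = 0.00315). CEBPB, a further activator of CXCL8, had a difference of -1.64 (adjusted p = 1.07e-05).

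Of 17 genes of interferon signalling and nucleic acid sensing, known inducers of CXCL10 and CCL5, 4 rose, 5 fell and 8 were not past the threshold, with a median of 0.018. The share past it was 52.9%, beside 56.9% of all rows. STAT2, a transcription factor of the type I interferon response, rose by 1.44 (standard error 0.18, limma, adjusted p = 4.32e-04). The receptor chain IFNAR1 rose by 0.43 (adjusted p = 0.00274) and the kinase TYK2 by 0.26 (adjusted p = 0.0134), which was lost without parental replicate 1 (adjusted p = 0.0603). IFNGR2, a chain of the interferon gamma receptor, fell by 1.15 (adjusted p = 3.15e-05), TMEM173 (STING) fell by 0.88 (adjusted p = 3.73e-04) and CGAS, the DNA sensor upstream of it, fell by 0.61 (adjusted p = 0.00107). IRF1, a transcription factor of the interferon response, had a difference of -0.02 (adjusted p = 0.838).

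Among 11 regulators of chemokine mRNA decay, 5 fell, 1 rose and 5 were not past the threshold, with a median of -0.19. The list does not separate factors that promote decay from factors that slow it. The share past it was 54.5%, beside 56.9% of all rows. ZFP36 (tristetraprolin), which binds ATTTA stretches and promotes decay, fell by 1.97 (limma, adjusted p = 1.09e-05). ZC3H12A (Regnase-1), an endonuclease that cuts inflammatory messages, fell by 1.54 (adjusted p = 3.29e-05) and ZFP36L2, a relative of ZFP36, fell by 1.06 (adjusted p = 7.79e-05). RC3H1 (Roquin-1), a further regulator of message decay, rose by 0.44 (adjusted p = 0.00335).

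Of 12 genes whose proteins release, trim or hold chemokines, 10 passed the filter, of which 3 rose, 2 fell and 5 were not past the threshold (median 0.12). So 5 of 10 were past it, beside 56.9% of all rows. The count ran from 3 without any 1 of the parental samples to 9 without adapted replicate 1, with medians of 0.055 to 0.19 over the samples left out in turn. Over all 12656 rows the number past the threshold moved the same way, from 5763 without parental replicate 2 to 8370 without adapted replicate 1. DPP4, a membrane peptidase that trims and inactivates CXCL10, fell by 2.26 (standard error 0.14, limma, adjusted p = 2.39e-05). ADAM17, a sheddase of CX3CL1, fell by 0.24 (adjusted p = 0.0267), a call lost in 6 of 18 alternatives (adjusted p up to 0.0970), and ADAM10, which sheds both CXCL16 and CX3CL1, had a difference of 0.12 (adjusted p = 0.165). The heparan sulphate proteoglycans GPC1 and SDC3, which can hold chemokines at the cell surface, rose by 2.54 (adjusted p = 1.35e-05) and by 1.97 (adjusted p = 8.61e-06). SDC4 rose by 0.22 (adjusted p = 0.019) but lost this call without any 1 of the 3 parental samples (adjusted p = 0.0618 to 0.0806).

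**Figure D5:**
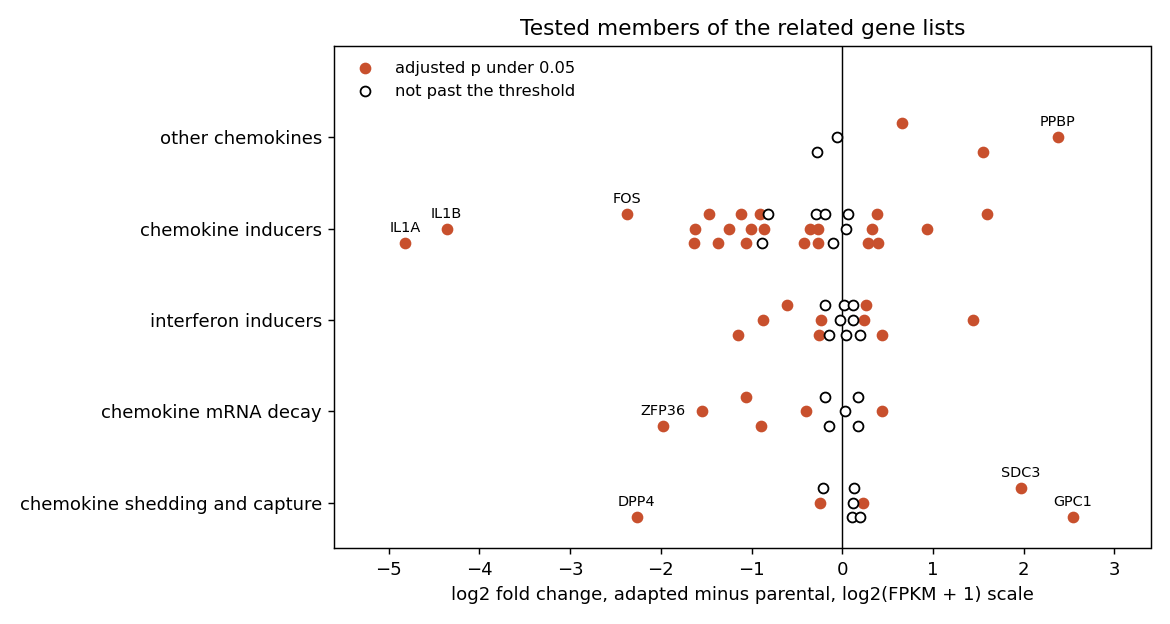
log2 fold change, adapted minus parental, of each tested gene in 5 related lists (filled, past the threshold; open, not past it), with names beside changes over 1.9 in size. The inducers spread furthest to the left, with IL1A at -4.82 and IL1B at -4.36, while PPBP, GPC1 and SDC3 lie furthest to the right. IL1A, FOS, IL36G, TNF and PPBP passed the filter only through the group where they are high, so their filled marks carry no weight.

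Of the 38 other chemokine genes, 36 were in the table, 16 of these were listed at 0 in all samples and 5 passed the filter. Of the 5, 3 were past the threshold (60.0%, beside 56.9% of all rows), namely CCL2, XCL1 and PPBP, all higher in adapted cells, and PPBP passed the filter only through the adapted samples. CXCL6 and CCL28 were not past it. With quantile normalization, centring on the median or without adapted replicate 3, 4 were past it, 1 of them lower. CCL2, which attracts monocytes, had values of 2.78, 2.64 and 2.83 in parental and 5.43, 3.53 and 3.94 in adapted samples. Its adapted samples were widely spread, with replicate 1 the highest, and its rise of 1.55 (standard error 0.43, limma, adjusted p = 0.0184) was lost without parental replicate 2 (adjusted p = 0.0561). Without adapted replicate 1 the difference was 0.99 (adjusted p = 4.23e-04). XCL1 (lymphotactin) rose by 0.65 (adjusted p = 2.4e-04), and CCL28, a mucosal chemokine, had a difference of -0.28 (adjusted p = 0.0546).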

How the data were processed

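RNA-sequencing values of 3 parental and 3 adapted H1975 samples were used. The authors deposited 1 table of log2 values, with 27216 rows and 1 column per sample. Its unit is not named. It was taken as log2(FPKM + 1) because 2 to the power of the value, minus 1, has 6 decimals (tolerance 0.01 of the last decimal) in 27069 rows. In the other 147 rows, none of them a chemokine or a member of a related list, values of 1 group are off this grid. The submitters' processing notes name Bowtie2 2.1.0, STAR, edgeR and the build hg38 without roles. The quantifier and annotation are not given in the sources used here. Columns headed DMSO and OSI were matched to samples by group and replicate number.

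The study's own test needs counts, which this table does not hold, so limma 3.58.1 (R 4.3.3, lmFit, eBayes with an intensity trend, unpaired, two-sided) was used on rows with a mean of at least 1, with Benjamini-Hochberg adjustment over 12656 rows. The test was tested on simulated data. Depth is unknown, so errors rest on the replicates alone. FPKM means and ratios are of the linear values. Python 3.11.15 counted motifs, ATTTA and shared 50-base stretches.

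The members and gene lists were chosen with earlier results of these data known. Besides the members, the text names for each list at most 3 risers and 3 fallers (largest changes past the threshold, groups not overlapping), the 5 rows nearest to CCL20 and to CXCL8, the neighbours of CCL20 in the order of falls, and the markers. RELA, RELB, REL, NFKB1, NFKB2, JUN, FOSL1, IL36G, TNF, IL17C and CEBPB were named after their values were seen. So were IRF1, ADAM10, CCL28, CXCL6, PF4 and PF4V1, the overlapping genes and the genes of the closing section. Alternatives were a pseudocount of 0.1, no filter (rows at 0 in all samples left out), a minimum mean of 3, quantile normalization, equal sums with and without mitochondrially encoded genes, median centring, eBayes without trend or robust, the replicate number as a block, each sample left out in turn, and leaving out NewGene_ or off-grid rows.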

Additional observations from a re-analysis of the deposited data

How the results depend on the processing

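All 8 tested chemokines kept their direction under all 18 alternatives, and all but CXCL5 kept their side of the threshold (log2 fold change of CCL20 -5.29 to -5.01, CXCL8 -2.84 to -2.45, CXCL16 1.17 to 1.28). Over the 8 chemokines and the 24 genes named from related lists, 550 of 570 values stayed on the same side of the threshold, 20 lost the call and none changed direction. The 24 were picked as the largest changes past the threshold without overlap, so this tally was largely fixed by the choice and is a description only. It includes PPBP, IL1A and FOS, whose tests carry no weight. A minimum mean of 3 left fewer rows to test. It gave 1 of 1 other chemokines, 15 of 20 inducers and 4532 of 7693 rows past the threshold. The main fit gave 3 of 5, 23 of 30 and 7202 of 12656. Without a filter, 5 of 20 other chemokines and 4 of 20 receptors were past it, beside 36.6% of all 23902 rows. With the filter these were 3 of 5 and 0 of 0, so more of them were tested without it. The count for release and capture genes was 3 to 9 when each sample was left out in turn (5 with all samples). It was 3 without parental replicate 1, 2 or 3 and 9 without adapted replicate 1. All rows moved the same way, with 5822, 5763 and 5855 of 12656 past the threshold without these parental samples. Without adapted replicate 1 there were 8370, against 7202 with all samples, and the cause was not tested. With the replicate block, 8 chemokines and 6761 rows were past the threshold. Samples with the same number did not deviate together (r = -0.051, -0.031 and -0.020 across rows, which are not independent). This check cannot tell whether they shared a culture or a batch. Of the 32 genes, ADAM17 lost its call under the block (adjusted p = 0.0573) and no other did. No scaling moved the median of all rows by over 0.1. Depth is unknown, so no limit of detection can be given.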

Other observations

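None of the 24 chemokine receptor genes passed the filter, and 4 were listed at 0 in all samples. The receptors of the members were near the floor. CXCR2, which binds the ELR+ chemokines, was at most 0.04 in parental and listed at 0 in adapted samples, CCR6, which binds CCL20, was at most 0.02 and then listed at 0, and CX3CR1 was listed at 0 throughout. CXCR6, which binds CXCL16, had values of 0.46, 0.50 and 0.36 in parental and 0.32, 0.83 and 0.67 in adapted samples. ACKR3, a scavenging receptor, was listed at 0 in the 3 parental samples and had values of 1.43, 0.58 and 0.61 in adapted samples, with replicate 1 the highest.

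Below the filter, CXCL11, which shares CXCR3 with CXCL10, had values of 0.24, 0.05 and 0.04 in parental and 0.41, 0.51 and 0.54 in adapted samples, without overlap. CCL22, a ligand of CCR4, had values of 0.25, 0.15 and 0.20 in parental and 0.02, 0.05 and 0.06 in adapted samples. CXCL17, a mucosal chemokine, overlapped between the groups, with values of 0.71 to 1.01 in parental and 0.71 to 1.48 in adapted samples.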
